A study of Saccharomyces cerevisiae with 18 samples.

Results

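Young budding yeast cells lacking the transcription factor gene MSN2 were compared with young wild-type cells over every gene tested, in 6 of the 18 RNA sequencing libraries of the series, 3 per strain. The wild type was the MAT alpha strain CGY4.51 and the mutant was CGY61.46, in which MSN2 is replaced by HphNT1 (msn2::HphNT1). Both were harvested while growing exponentially in SC YNB medium lacking biotin, to which 2% glucose, 2% MMP and DAPA had been added, at pH 4.5. Further groups of 3 are used beside them where stated: young cells of strain CGY69.30, which carries msn2::HphNT1 together with msn4::NatNT2, and wild-type and msn2 deletion mother cells aged for 24 h on magnetic beads in a Ministat Aging Device. The 3 aged libraries of the double deletion enter only the joint fit of all 18 libraries. They held 4078400 to 7136185 counts each, fewer than any other group. Each genotype is 1 strain. Nothing in the labels says whether the 3 replicates of a group were grown apart, and the p-values therefore rest on a spread between libraries that may be technical. Expression is given as CPM, the read count scaled to a common library size with TMM factors, and a log2 fold change is always msn2 deletion minus wild type unless another pair is named.

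Msn2 and its relative Msn4 are zinc finger activators of the general stress response. Protein kinase A, which is active in glucose-rich growth, keeps them largely in the cytoplasm; when it falls or stress sets in they enter the nucleus and bind the stress response element, AGGGG, in the promoters of genes for trehalose and glycogen metabolism, small heat shock proteins and antioxidant enzymes. The comparison shows which RNA levels differ in exponentially growing cells of this medium when MSN2 is missing and MSN4 is still present.

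The young wild-type libraries held 30140441 to 35101890 counts each and those of the young msn2 deletion 25768602 to 34344784. One wild-type library, replicate 2, stood apart in its length profile: genes of at most 600 bases had a median log2 deviation from the mean of the 6 libraries of 0.18 in it, against -0.0827 to 0.0459 in the other 5. Nuclear protein-coding genes of at most 600 bases (1104 genes) had a median log2 fold change of -0.10 and those over 1500 bases (2228 genes) of 0.07, so small shifts of lists made of short genes are given with a length-corrected count beside them. Alpha-cell genes summed to 4585 to 5671 CPM in wild type and 5853 to 6115 CPM in the msn2 deletion, and the 6 genes specific to a cells to 33.4 to 40.3 and 36.6 to 37.0 CPM.

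MSN2 itself (YMR037C, chrXIII:344403-346517, minus strand) was at 40.9, 39.3 and 44.95 CPM in the wild-type libraries and at 4.203, 4.23 and 4.43 CPM in the msn2 deletion. All 3 deletion libraries lay far below all 3 wild-type libraries, and some counts remained in each of them. The fall was 9.74-fold (log2 fold change -3.28, SE 0.133, edgeR adjusted p = 2.95e-13). MSN4 (YKL062W) was at 45.1, 43.1 and 39.6 CPM in wild type and 54.4, 43.9 and 53.4 CPM in the msn2 deletion; the groups overlapped and the difference did not pass (log2 fold change 0.25, SE 0.0955, edgeR adjusted p = 0.0549). It passed with DESeq2 (adjusted p = 0.049).

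Of 6833 genes tested with edgeR's quasi-likelihood F test, 2084 (30.5%) differed at a Benjamini-Hochberg adjusted p under 0.05, 1023 higher (15%) and 1061 lower (15.5%) in the msn2 deletion. Scaled by library totals instead of TMM factors, the split was 1056 higher and 674 lower, and without wild-type replicate 3 the count of higher genes was 674. These shares of 15% higher and 15.5% lower are the background for every list count below. Most differences were small. A change of at least 2-fold was reached by 120 genes (1.76%), 78 of them lower (1.14% of those tested) and 42 higher (0.615%). A test against a minimum log2 fold change of 0.5 called 139 genes (2.03%), 1.54% lower and 0.498% higher. Among the 78, 68 were nuclear protein-coding genes and 10 had no entry in the annotation used. Among the 42, 17 were nuclear protein-coding genes, 8 were encoded in mitochondria and 17 had no entry. The plot of level against difference shows this asymmetry, with a tail of strongly lowered stress genes and few strong increases at moderate or high levels.

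**Figure D1:**
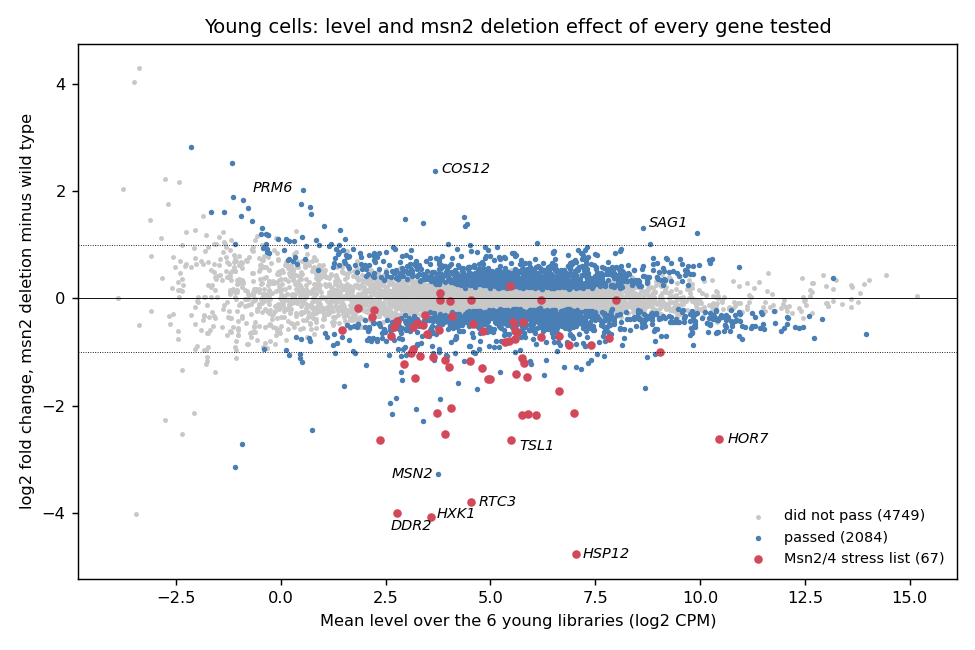
Each point is 1 of the 6833 genes tested, with its mean level over the 6 young libraries (log2 CPM, horizontal) and its log2 fold change, msn2 deletion minus wild type (vertical); blue genes passed, red genes are the 67 tested members of the Msn2/4 stress list, and dotted lines mark 2-fold. HSP12, HXK1, DDR2 and RTC3 lie lowest among the labelled genes, and MSN2 itself is at -3.28.

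The stress genes known as Msn2/4 targets were lower as a group. Of 67 tested members of a list written with earlier results of these data known, and so not independent of them, 54 fell, 30 of them at least 2-fold, 12 did not pass and 1 rose, against 15.5% lower and 15% higher among all genes tested. Their median log2 fold change was -0.86, where the median of all genes was -0.0115. All 3 deletion libraries lay below all 3 wild-type libraries for 56 of the 67, against 19.9% of all genes (20.2% lay above). Each deletion library showed the fall: the median of the members against the wild-type mean (log2) was -0.88, -0.88 and -0.90 in the msn2 deletion, and -0.00790 to 0.00826 in the wild-type libraries. In these bulk libraries, less RNA per cell and fewer cells that express a gene cannot be told apart.

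The promoters of 3 strongly lowered genes that hold at least 2 sites are printed to show the element Msn2 is known to bind. Each window runs from 250 bases before to 50 bases after the start codon in RefSeq build R64, written 5′ to 3′ on the gene's strand, and capitals mark AGGGG or its complement CCCCT. Sites begin 232 and 190 bases before the start codon in HSP12, 248, 203 and 175 before it in DDR2, and 231, 179 and 165 before it in TSL1. HSP12 is chrVI:107006-107305 on the plus strand, DDR2 chrXV:231706-232005 on the minus strand and TSL1 chrXIII:70374-70673 on the plus strand. Other strongly lowered genes differed: the same window held 1 site in RTC3 and none in HXK1, GPH1, HOR7, YGP1 and TMA10. Of the 17 nuclear protein-coding genes lower by at least 4-fold, 10 held a site in it.
HSP12: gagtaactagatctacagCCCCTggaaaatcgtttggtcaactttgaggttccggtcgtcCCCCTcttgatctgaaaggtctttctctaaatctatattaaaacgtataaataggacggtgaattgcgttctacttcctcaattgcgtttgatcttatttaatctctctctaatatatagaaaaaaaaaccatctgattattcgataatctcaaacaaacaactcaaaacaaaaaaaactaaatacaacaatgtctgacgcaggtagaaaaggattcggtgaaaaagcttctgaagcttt
DDR2: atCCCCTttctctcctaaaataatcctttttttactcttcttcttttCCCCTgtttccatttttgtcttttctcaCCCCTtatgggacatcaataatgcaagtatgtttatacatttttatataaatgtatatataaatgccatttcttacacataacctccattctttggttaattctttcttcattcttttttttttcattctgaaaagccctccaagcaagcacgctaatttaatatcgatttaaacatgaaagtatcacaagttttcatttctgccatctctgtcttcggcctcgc
TSL1: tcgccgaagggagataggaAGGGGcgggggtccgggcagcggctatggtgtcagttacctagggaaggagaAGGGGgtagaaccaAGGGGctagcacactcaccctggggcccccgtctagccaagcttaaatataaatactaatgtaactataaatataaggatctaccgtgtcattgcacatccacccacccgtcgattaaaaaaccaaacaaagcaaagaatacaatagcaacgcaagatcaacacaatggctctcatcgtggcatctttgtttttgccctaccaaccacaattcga

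HSP12 (YFL014W), which encodes a small membrane-associated heat shock protein, fell most among the genes named here. Its level was 606, 786 and 698 CPM in wild type and 20.5, 21.8 and 34.1 CPM in the msn2 deletion. The ranges were far apart, and the fall was 27.4-fold (log2 fold change -4.78, SE 0.163, edgeR adjusted p = 2.2e-14). DDR2 (YOL052C-A), a small stress-induced gene, went from 23.2, 30.97 and 26.8 CPM to 1.496, 1.63 and 1.95 CPM. Every deletion library was below 2 CPM, and the log2 fold change was -4.01 (SE 0.181, edgeR adjusted p = 1.52e-12). RTC3 (YHR087W) was at 76.1, 98.1 and 83.8 CPM in wild type and 7.302, 5.12 and 6.11 CPM in the deletion, without overlap (log2 fold change -3.79, SE 0.127, edgeR adjusted p = 2.19e-14). HOR7 (YMR251W-A), a short gene known from hyperosmotic stress, was at 3024, 4200.3 and 3325 CPM in wild type and at 566, 562 and 577 CPM in the deletion. Its deletion libraries were close to each other and all below wild type (log2 fold change -2.63, SE 0.152).

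The hexokinase gene HXK1 and the glucokinase genes GLK1 and EMI2 fell, while HXK2, the main hexokinase gene of growth on glucose, did not pass. HXK1 (YFR053C), the hexokinase that glucose represses, was at 58.98, 39.4 and 47.8 CPM in wild type and 3.06, 2.599 and 2.99 CPM in the deletion. It fell 16.9-fold without overlap (log2 fold change -4.08, SE 0.15, edgeR adjusted p = 7.15e-14), and its window of 250 bases before to 50 after the start held no AGGGG, whereas the 500 bases before the start held 3. GLK1, the glucokinase gene, was at 118, 106 and 116 CPM in wild type and at 24.2, 24.2 and 27.5 CPM in the deletion (log2 fold change -2.17, SE 0.0951). EMI2, a paralog of GLK1, fell by 1.17 on the log2 scale. HXK2, added after its values were seen, was at 392, 326 and 394 CPM in wild type and 372, 359.8 and 382 CPM in the deletion, with overlap (log2 fold change 0.00268, SE 0.116, edgeR adjusted p = 0.99). HXT7, a high-affinity hexose transporter gene with a near-identical copy, HXT6, between which reads may be split, was at 12.4, 15.4 and 11.8 CPM and then at 2.17, 3.68 and 3.08 CPM (log2 fold change -2.16). HXT3, a low-affinity transporter gene, moved the other way, from 163, 132 and 129 CPM to 232, 217 and 295 CPM (log2 fold change 0.81, SE 0.121, edgeR adjusted p = 5.93e-05). HXT1 overlapped between strains and did not pass, with a log2 fold change of 0.31. Over the 18 tested hexose transporter and sensor genes, 4 rose and 2 fell (22.2% and 11.1%), near the shares among all genes tested of 15% and 15.5%.

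Reserve carbohydrate genes were lower along both the trehalose and the glycogen route. Among 10 trehalose genes 8 fell and none rose (median log2 fold change -0.83). Among 17 glycogen genes 9 fell and 1 rose (median -0.46). Both lists share genes with the stress list above and are not separate from it. The shared genes include TSL1, PGM2, TPS2, UGP1, GPH1, GSY1 and GSY2. TSL1 (YML100W), a regulatory subunit of trehalose synthase, was at 120.1, 108 and 109 CPM in wild type and 16.8, 17.8 and 19.2 CPM in the deletion. The groups were well apart, and the log2 fold change was -2.65 (SE 0.0845, edgeR adjusted p = 1.88e-14). The catalytic subunit genes TPS1 and TPS2 fell (log2 fold changes -1.21 and -1.47), and PGM2, the main phosphoglucomutase gene, fell by 1.505. UGP1, whose product makes the UDP-glucose that both routes use, fell by 0.86. GPH1, the glycogen phosphorylase gene, was at 37.2, 33.6 and 37.7 CPM and then at 5.2005, 6.05 and 7.69 CPM (log2 fold change -2.53, SE 0.114). The glycogen synthase genes GSY1 and GSY2 fell (log2 fold changes -1.49 and -1.404), so that genes for synthesis and for breakdown were lower in the same libraries.

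**Figure D2:**
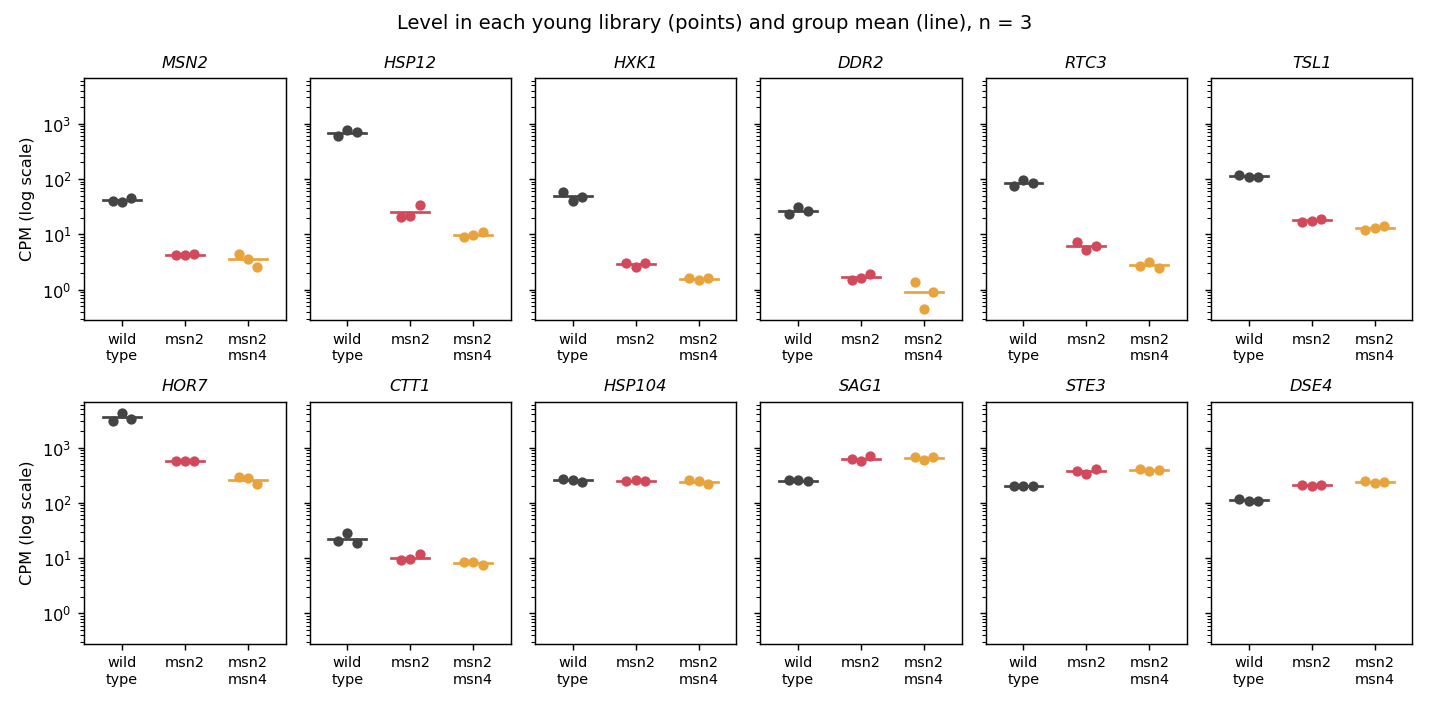
CPM on a log axis in each of the 9 young libraries (points) with the group mean (line) for wild type, the msn2 deletion and the msn2 msn4 double deletion, 3 libraries each. HSP12, HXK1, DDR2, RTC3, TSL1 and HOR7 drop by several fold in both mutants, HSP104 lies between 238 and 274 CPM in wild type and 246 and 262 CPM in the msn2 deletion, and SAG1, STE3 and DSE4 are higher in both mutants.

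Other members of the stress list covered several functions. PNC1, the nicotinamidase gene, was at 252, 267 and 283 CPM in wild type and 59.6, 62.1 and 60.8 CPM in the deletion (log2 fold change -2.14, SE 0.0836). GAD1, glutamate decarboxylase, fell by 2.05, SOL4, a 6-phosphogluconolactonase gene, fell by 2.64, and NQM1, a transaldolase gene, fell by 1.097 on the log2 scale. YGP1, a cell wall glycoprotein gene, fell by 2.18, TMA10, whose product associates with ribosomes, fell by 2.17, and PHM8, a nucleotide phosphatase gene, fell by 1.73. RGI1 (YER067W) fell by 2.13, and the neighbouring identifiers YER067C-A and YER066C-A fell as well (log2 fold changes -2.28 and -2.07); these have no entry in the annotation used, and reads of overlapping features may not be separable. Outside the stress list, UBI4, the polyubiquitin gene, was at 300.5, 317 and 294 CPM and then at 149.8, 140.3 and 142 CPM (log2 fold change -1.08). CWP1, a mannoprotein gene of the cell wall and also outside that list, fell by 1.28. Over 34 cell wall genes, however, 9 rose and 4 fell.

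Not every gene of the stress response was lower. HSP104, the disaggregase gene whose promoter window holds 2 AGGGG sites, was at 274, 257 and 238 CPM in wild type and 246, 262 and 247 CPM in the deletion. The ranges overlapped, and the log2 fold change was -0.03 (SE 0.0741, edgeR adjusted p = 0.804). SSA4, a chaperone gene of the Hsp70 family, was slightly higher in the deletion (log2 fold change 0.24, edgeR adjusted p = 0.0171), a call that was lost without wild-type replicate 3, without deletion replicate 1 and without deletion replicate 3. HSP26 fell by 0.504 and HSP42, another small heat shock protein gene, fell by 1.31. GND2 and TKL2 of the pentose phosphate pathway had log2 fold changes of -0.19 and -0.34 and did not pass. Over 29 Hsf1-linked chaperone genes 5 rose and 4 fell (17.2% and 13.8%), near the 15% and 15.5% of all genes tested (median -0.00598). Among the 5, KAR2, of the endoplasmic reticulum, and SSE1 each rose by 0.74 on the log2 scale, with all 3 deletion libraries above all wild-type libraries.

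Antioxidant genes were lower in part: 14 of 37 members fell and 2 rose (median log2 fold change -0.17). Of the 37, 16 are at most 600 bases long, and after length correction 12 fell and 5 rose (median -0.095). CTT1, the cytosolic catalase gene often used as a readout of Msn2, was at 20.4, 28.1 and 19.04 CPM in wild type and 9.19, 9.74 and 11.7 CPM in the deletion. The groups did not overlap, and the fall was smaller than that of HSP12 (log2 fold change -1.15, SE 0.132, edgeR adjusted p = 2.46e-06). The superoxide dismutase genes SOD1 and SOD2 fell (log2 fold changes -0.87 and -0.86), and MCR1, a mitochondrial cytochrome b5 reductase gene, fell by 1.33 on the log2 scale.

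Genes of the kinase pathway that restrains Msn2 were lower in part. Among 22 Ras and protein kinase A genes 9 fell and 2 rose (median -0.21). That is 40.9% and 9.09%, against 15.5% and 15% of all genes tested. RAS2, the main Ras GTPase gene, was at 261, 252 and 255 CPM in wild type and 141, 144 and 153 CPM in the deletion, without overlap (log2 fold change -0.81, SE 0.0762, edgeR adjusted p = 1.75e-07). RAS1 fell by 0.398. YAK1, a kinase gene that acts opposite to protein kinase A, fell by 0.47, while RIM15 had a log2 fold change of 0.201 and did not pass (edgeR adjusted p = 0.0561).

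Some genes of glycerol synthesis and glycolysis were lower. GPD1 and GPP2, which encode the enzymes that make glycerol from dihydroxyacetone phosphate, fell (log2 fold changes -0.695 and -0.82). Over 29 osmotic and glycerol genes, however, 8 rose and 6 fell (27.6% and 20.7%, against 15% and 15.5% of all genes tested). Of 22 glycolysis and fermentation genes 7 fell (31.8%) and none rose (median -0.185). TDH1, the stress-induced glyceraldehyde phosphate dehydrogenase gene, was at 35.5, 30.97 and 30.8 CPM and then at 10.7, 10.98 and 10.8 CPM (log2 fold change -1.59, SE 0.0943). ENO1 fell by 0.86.

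Nuclear genes of respiration were lower, and mitochondrially encoded transcripts were higher. Among 49 nuclear genes of the respiratory chain and ATP synthase 32 fell and none rose (median log2 fold change -0.41). Of the 49, 31 are at most 600 bases long, and after length correction 30 fell with a median of -0.36. RIP1, the Rieske iron-sulfur protein gene, was at 130.2, 141 and 139 CPM in wild type and 73.3, 76.3 and 73.7 CPM in the deletion. All 3 deletion libraries were lower (log2 fold change -0.88, SE 0.086, edgeR adjusted p = 2.84e-07). CYC7 and COX5B, the isoform genes of cytochrome c and of a cytochrome oxidase subunit that are known for use at low oxygen, fell (log2 fold changes -1.498 and -1.04), INH1, an ATP synthase inhibitor, fell by 1.14, and NDI1, the internal NADH dehydrogenase gene, fell by 0.66. Of 18 TCA cycle genes 9 fell: CIT1, citrate synthase, fell by 0.64 and MDH1 fell by 0.54.

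Counts on the mitochondrial genome were 0.205 to 0.231% of all counts in wild type and 0.41 to 0.453% in the msn2 deletion, without overlap. Of 24 mitochondrial features tested 18 were higher. Of the 8 mitochondrially encoded protein genes tested 6 rose, with a median of 0.68, but 3 passed without wild-type replicate 1, without wild-type replicate 3 or without deletion replicate 2, and 2 without deletion replicate 1. The large ribosomal RNA (21S_RRNA) was at 590.3, 758 and 564 CPM and then at 1592, 1345 and 1517 CPM (log2 fold change 1.22, SE 0.236, edgeR adjusted p = 0.000724). COX1, a cytochrome oxidase subunit, was at 409, 514 and 430.5 CPM and then at 808, 796 and 682 CPM (log2 fold change 0.76). The small ribosomal RNA (15S_RRNA) spread widely in the deletion, at 59.4, 29.7 and 20.04 CPM, and without deletion replicate 1 its difference did not pass (edgeR adjusted p = 0.107). How far capture of these RNAs differed between libraries was not tested.

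Every histone gene tested was lower. All 11 fell, with a median log2 fold change of -0.48, and 10 fell after length correction, with a median of -0.40, and 9 of the 11 are at most 600 bases long. HTB1, for histone H2B, was at 573, 691 and 655 CPM in wild type and 365, 365 and 378 CPM in the deletion (log2 fold change -0.79, SE 0.0848, edgeR adjusted p = 9.25e-07). HHF1, HHT1 and HTB2 fell (log2 fold changes -0.65, -0.61 and -0.48). Cytosolic ribosomal protein genes fell in part, 57 of 137 with a median of -0.23 (48 and -0.145 after length correction). It was 41 with only the 6 libraries of the comparison, and 43 to 63 on leaving out 1 library. Their summed level overlapped between strains, at 473380, 615300 and 522040 CPM in wild type and 500940, 517390 and 464230 CPM in the deletion. RPS13 fell by 0.701 and RPL20A fell by 0.63 on the log2 scale, and RPL3 had -0.23 and did not pass (edgeR adjusted p = 0.0628). The 118 ribosome biogenesis genes were balanced, 15 higher and 16 lower, and NSR1, the nucleolin gene, was at 0.02.

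**Figure D3:**
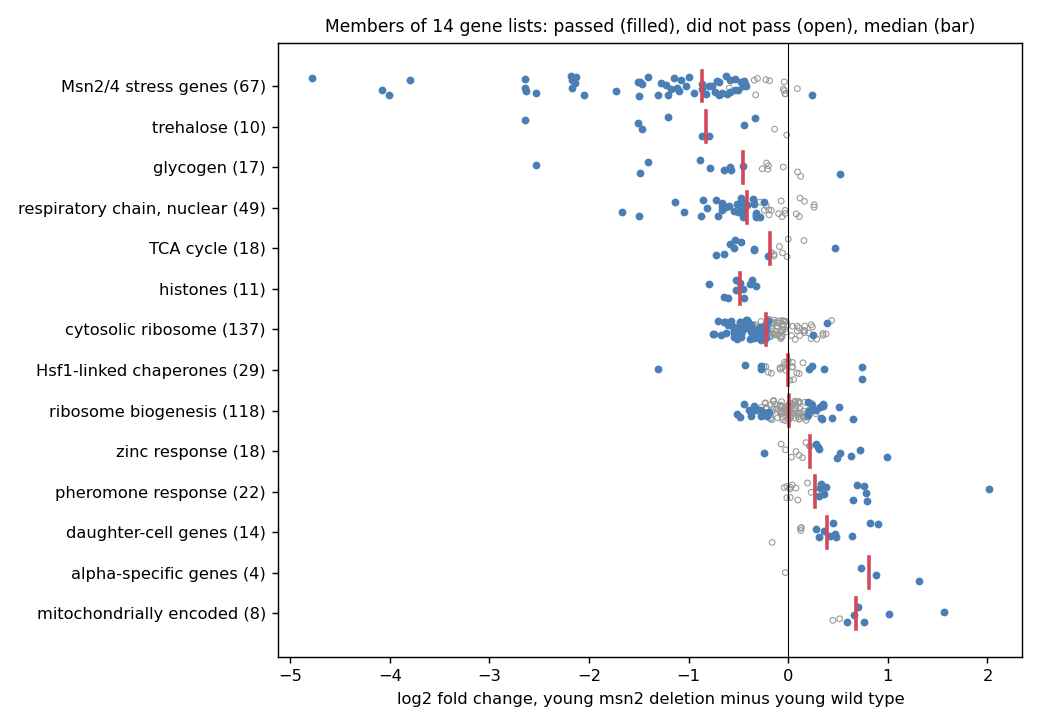
Each point is a member of 1 of 14 gene lists with its log2 fold change, msn2 deletion minus wild type (horizontal); filled points passed, open points did not, and the red bar is the list's median, with the number of tested members in brackets. Stress, trehalose, glycogen, respiratory and histone genes lie mostly left of 0, and daughter-cell, alpha-specific and mitochondrially encoded genes mostly right of it.

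Genes that were higher included markers of the mating type and of newborn daughter cells. Of 4 alpha-specific genes 3 rose: SAG1, the alpha-agglutinin gene, was at 254, 254 and 248 CPM in wild type and 617, 567 and 693 CPM in the msn2 deletion. Its ranges were far apart (log2 fold change 1.31, SE 0.0922, edgeR adjusted p = 1.96e-09). STE3, the receptor gene for a-factor, was at 202, 199.9 and 201 CPM and then at 370.2, 334 and 410.03 CPM (log2 fold change 0.89, SE 0.0856, edgeR adjusted p = 2.35e-07). MF(ALPHA)2, the minor alpha-factor gene, rose by 0.73, while the major gene MF(ALPHA)1 overlapped between strains with a log2 fold change of -0.03. None of the 6 genes specific to a cells passed.

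Among 22 haploid and pheromone response genes 11 rose and none fell (median 0.27). FUS1, a cell fusion gene, was at 22.7, 25.4 and 24.1 CPM in wild type and 41.3, 36.8 and 46.7 CPM in the deletion (log2 fold change 0.79, SE 0.0927, edgeR adjusted p = 3.14e-06). AGA1, the anchor subunit of a-agglutinin, rose by 0.78 and FIG1 by 0.76. PRM6, at under 1 CPM in every wild-type library and 2.28, 2.75 and 3.21 CPM in the deletion, rose by 2.01. The pheromone response element TGAAACA, searched on both strands in the window of 250 bases before to 50 after the start, was in 7 of the 11 that rose and in 5 of the 11 that did not pass, against 7.57% of all 5916 windows. The FUS1 window (R64, chrIII:71553-71852, plus strand) is printed with its 2 matches in capitals, which begin 187 and 160 bases before the start codon.
FUS1: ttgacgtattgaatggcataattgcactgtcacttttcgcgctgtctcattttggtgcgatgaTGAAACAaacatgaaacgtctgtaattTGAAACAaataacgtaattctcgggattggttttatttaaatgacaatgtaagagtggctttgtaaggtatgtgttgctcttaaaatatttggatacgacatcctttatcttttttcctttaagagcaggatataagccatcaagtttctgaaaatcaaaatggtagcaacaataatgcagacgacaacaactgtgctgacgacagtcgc

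Among 14 genes expressed in newborn daughter cells 10 rose and none fell (median 0.39). DSE4, a glucanase gene for cell separation, was at 118, 106 and 109 CPM in wild type and 211, 199.7 and 212 CPM in the deletion (log2 fold change 0.903, SE 0.0775, edgeR adjusted p = 4.12e-08). SCW11, another glucanase gene, rose by 0.82 and EGT2 by 0.64. CTS1, chitinase, rose by 0.45, a call lost without wild-type replicate 3 and without deletion replicate 3. The summed level of the 14 genes was 1450 to 1525 CPM in wild type and 1893 to 2125 CPM in the deletion. SIC1, the inhibitor of the S phase cyclin kinase and a member of the cell cycle list instead, rose by 0.74. Over the 34 cell cycle genes 7 rose and 9 fell (median -0.0166). Whether the share of newborn cells differed was not tested.

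Single genes of metal uptake and of the subtelomeric COS family gave further increases. FET4, a low-affinity transporter gene for iron and other metals, was at 17.6, 16.2 and 14.996 CPM and then at 33.2, 29.8 and 33.9 CPM (log2 fold change 0.99, SE 0.0749, edgeR adjusted p = 5.58e-09). ZRT2, a zinc transporter gene, rose by 0.72, and of 18 zinc response genes 8 rose and 1 fell. COS12 (YGL263W, chrVII:2790-3932, plus strand), near a chromosome end, had the largest rise among the genes with values in the text: 6.08, 5.86 and 5.09 CPM in wild type, 26.1, 37.002 and 25.02 CPM in the deletion, a rise of 2.37 (SE 0.164, edgeR adjusted p = 1.56e-09). COS8 rose by 0.96, and reads of this multigene family may be split between copies. Over the 11 COS genes tested, 3 rose and 2 fell (27.3% and 18.2%, against 15% and 15.5% of all genes tested). Within 20 kb of chromosome ends 38 of 219 genes rose (17.4%), near the 15% of all genes, and 13 fell (5.94%), against 16.9% of genes farther than 50 kb. YLR342W-A (1.36), the lysine tRNA gene tK(UUU)D (1.39) and the Ty gag-pol gene YOL103W-B (1.03), whose family has many near-identical copies, were among the other large rises, and single copies of repeated genes are uncertain. The rule that takes the 15 highest genes also named a second lysine tRNA gene, tK(UUU)P, the small nucleolar RNA gene snR33 (0.96), YNL195C (1.02), YHR063W-A (0.96) and the mitochondrial intron genes SCEI (1.02) and AI5_ALPHA (0.93). ECM29, of a proteasome-associated protein, rose by 0.67.

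No nuclear chromosome shifted as a whole: medians ran from -0.0563 on chromosome V to 0.0488 on chromosome I. Of the 8 genes next to MSN2, RCH1 rose by 0.37, YET2 by 0.33, SUB1 fell by 0.53 and ARA2 fell by 0.33, while ARP9, IMP2, MIH1 and CCS1 did not pass. Among all genes tested 30.5% differed. The calls of YET2, ARA2 and SUB1 were each lost on leaving out 1 library, among them deletion replicate 3 for all 3.

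Over all 5916 nuclear protein-coding genes with a window, the stress response element (AGGGG or CCCCT, 250 bases before to 50 after the start) was found in 21.7%. It was in 33% of the 957 lower genes, in 39 of the 68 genes lower by at least 2-fold (57.4%) and in 17.5% of the 881 higher genes. With 0, 1, 2 and at least 3 sites the median log2 fold change was -0.00268, -0.0827, -0.185 and -0.44, over 4630, 1110, 147 and 29 genes. With 500 bases before the start, 60 of the 68 (88.2%) held the element against 34.2% of all genes. In the stress list, the window of 250 bases before to 50 after held the element in 39 of the 54 genes that fell. It did so in 8 of the 13 that did not fall. With 500 bases before the start these were 52 of the 54 and 11 of the 13. A match is a description of the letters and not evidence of binding.

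**Figure D4:**
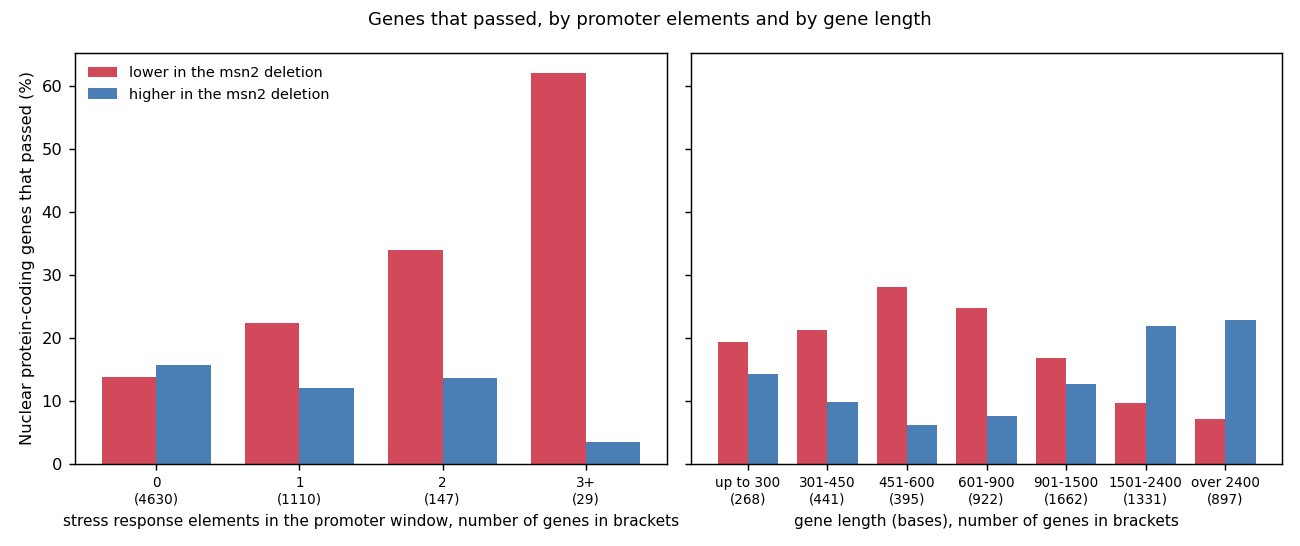
Share of nuclear protein-coding genes (%, vertical) that were lower (red) or higher (blue) in the msn2 deletion, by number of stress response elements in the promoter window (left) and by gene length in bases (right), with gene numbers in brackets. The lower share goes from 13.8% without an element to 62.1% with at least 3. By length, the higher share is 14.2% in the shortest bin, 6.08% in the bin that ends at 600 bases and 22.9% among the longest genes. The lower share in the same 3 bins is 19.4%, 28.1% and 7.02%.

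The fall in young cells was set beside the same deletion in aged cells, which used other libraries. Of the 78 genes lower by at least 2-fold in young cells, 61 were also lower in aged cells, where 16% of all genes tested were lower, and the median log2 fold change was -1.32 young and -0.83 aged. Of the 42 genes higher by at least 2-fold, 12 were also higher in aged cells, where 13.9% of all genes were higher, with medians of 1.31 young and 0.55 aged. A test of the difference between the young and aged effects called 1009 genes (14.8% of those tested, 7.54% more negative and 7.23% more positive in young cells; 645 without young wild-type replicate 3 and 657 without aged msn2 deletion replicate 1). It called 46 of the 78, of which 41 were more negative in young cells, and 7 of the 42, all more positive in young cells. Both sets were chosen by the size of the young change, and the same young libraries enter this test, so the choice favours a larger young effect and these counts and medians are descriptions only. In the stress list 20 of 67 were more negative in young cells and 10 less so, with nearly equal medians of -0.86 in both ages. HSP12 had log2 fold changes of -4.78 young and -2.31 aged, a difference of -2.47 (SE 0.2, edgeR adjusted p = 2.17e-07). TMA10 fell by 2.17 in young cells and was at -0.01 in aged cells. HSP26 and HSP104 went the other way, at -0.504 and -0.03 in young cells and -1.58 and -1.08 in aged cells. For TPS1, TPS2, GSY2 and MCR1 the difference did not pass.

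**Figure D5:**
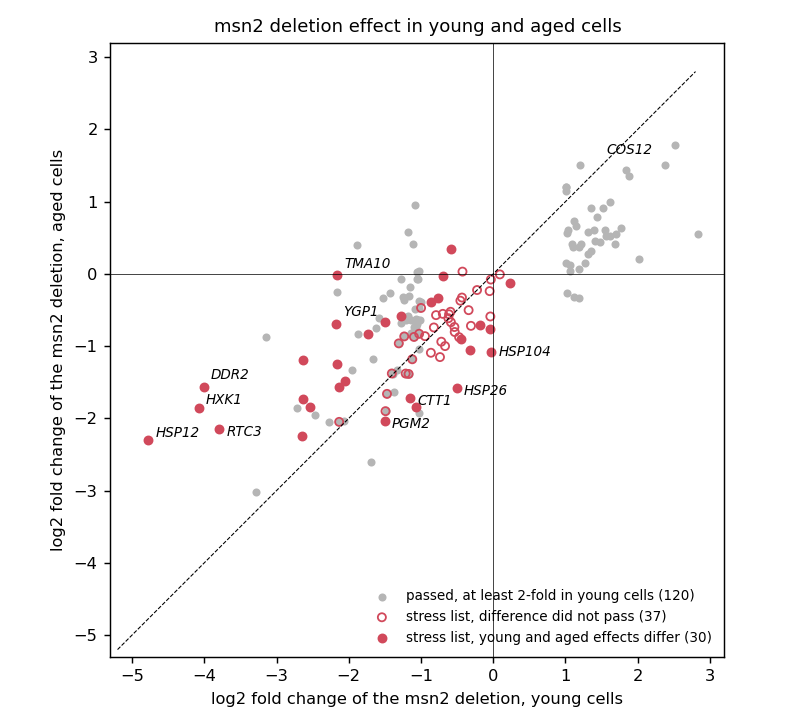
The log2 fold change of the msn2 deletion in young cells (horizontal) against that in aged cells (vertical) for the 120 genes changed at least 2-fold in young cells (grey) and the 67 members of the stress list (red, filled where the young and aged effects differ); the dashed line marks equal effects. HSP12, HXK1, DDR2 and RTC3 lie above the line at left, and HSP104 and HSP26 below it.

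Deleting MSN4 as well moved few genes further. The young double deletion differed from the young msn2 deletion, whose libraries are the same as above, in 31 genes (0.454%), 22 lower (0.322%) and 9 higher (0.132%); with DESeq2 it was 85, and without any 1 of the 6 libraries 14 to 19. MSN4 was at 23.9, 22.2 and 18.1 CPM in the libraries labelled as lacking it, well above 0 in each, with a log2 difference of -0.997 from wild type and -1.24 from the msn2 deletion; the labels do not say which part of the gene was replaced. Of the 67 stress genes 8 were lower still. HSP12 reached 9.13, 9.66 and 10.9 CPM, a further log2 difference of -1.36 (SE 0.155, edgeR adjusted p = 5.36e-05). RTC3, HOR7, SOL4 and CYC7 fell further (log2 differences -1.16, -1.11, -0.84 and -0.83), and TSL1 and PNC1 did so to a smaller extent (log2 differences -0.45 and -0.398). COX5B fell further too (log2 difference -0.799). For CTT1, GLK1, TPS1 and TPS2 the further difference did not pass.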

How the data were processed

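The labels' protocols state that RNA was extracted from the frozen cells, that samples with an integrity number above 6 were used, and that directional libraries (NEB Ultra II) of polyA RNA were sequenced as paired reads on a NovaSeq X Plus. Per the submitters' processing notes, the tools were STAR 2.7.6a, cutadapt 2.6, bcl2fastq and, from Subread 1.6.2, featureCounts, and the genome build was R64 (sacCer3); the counting options are not given in the sources used here. The authors deposited expected counts of 7118 features in 18 libraries. Since 54.6% of the nonzero values differed from a whole number by more than 0.005, values were rounded. Reads of overlapping or antisense features may not be separable. Locus tags of 6040 features matched the R64 RefSeq annotation, which gave coordinates and promoter sequence, and 1078 did not.

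All 18 libraries were fitted together in edgeR 4.0.16 (R 4.3.3) with TMM factors, filterByExpr (6833 features kept, 285 left out) and 1 mean per group, with 12 residual degrees of freedom and a common BCV (biological coefficient of variation) of 0.0922. Two-sided quasi-likelihood F tests were adjusted by Benjamini-Hochberg over all features tested, with a threshold of 0.05, and glmTreat tested against a log2 fold change of 0.5. SE is the absolute log2 fold change divided by the square root of F. The fit was tested on simulated counts. Gene lists (50) were described by counts and medians, with no set test. Members and lists were chosen with earlier results of these data known. Named genes were MSN2 and MSN4, the 15 highest and 15 lowest passing genes without overlap whose mean log2 CPM reached 3, the 4 members of smallest p in each list, the 4 genes on each side of MSN2, and a fixed set of stress, metabolism and growth genes. For the text 102 genes were tabulated, some given with levels and SE and many by fold change or call alone. A few more are given by fold change or name alone, and HXK2 was added outside this rule. Replicate numbers gave no clear pairing. Correlations of deviations between same-numbered wild-type and msn2 deletion libraries were 0.125, 0.283 and 0.0345. Wild-type replicates 2 and 3 correlated best with the deletion library of their own number, and replicate 1 did not. The labels give no batch or date. Alternatives were DESeq2 1.42.0, RLE factors, library totals, no filter, at least 10 CPM in 3 libraries, removal of mitochondrial, ribosomal RNA and Ty features, only the 6 or 9 libraries concerned, replicate number as a block, and each library left out. A fit on genes of known length only, a correction for gene length, by a loess curve fitted in each library and used as an offset, and a promoter window of 500 bases were chosen after the data were seen. Some named genes are not reported here.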

Additional observations from a re-analysis of the deposited data

Results flagged for a closer look

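The msn2 deletion effect differed between young and aged cells for 1009 genes (14.8% of those tested) by a test of the difference itself (edgeR quasi-likelihood F test, adjusted p under 0.05). Of the 102 genes tabulated for the text, 54 were among them, 31 more negative and 23 more positive in young cells. Among all genes tested 7.54% were more negative and 7.23% more positive. Many of these genes were named for a strong change in young cells, and the same young libraries enter the test, so the choice favours a larger young effect. All values that follow are the young log2 fold change minus the aged one.

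In stress and reserve carbohydrate genes the young effect was the more negative by -2.47 for HSP12, -2.44 for DDR2, -2.23 for HXK1, -2.15 for TMA10, -1.65 for RTC3, -1.49 for YGP1 and -1.43 for HOR7. Smaller differences of the same direction were -0.919 for GLK1, -0.907 for SOL4, -0.898 for PHM8, -0.692 for GPH1, -0.592 for UBI4, -0.57 for PNC1, -0.561 for GAD1 and -0.396 for TSL1. The opposite direction was seen for HSP26 at 1.08, HSP104 at 1.05, CTT1 at 0.569, PGM2 at 0.535, GND2 at 0.517 and SSA4 at 0.36. HSP26, HSP104, CTT1 and PGM2 thus had the more negative log2 fold change in aged cells.

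Among other genes, the values were -1.9 for HXT7, -1.22 for CWP1, -0.979 for TDH1, -0.936 for ALD4, -0.831 for CYC7, -0.757 for GPP2, -0.667 for GPD1, -0.63 for SOD1, -0.558 for MIH1, -0.538 for RPL20A, -0.508 for INH1, -0.475 for SOD2, -0.458 for MSN4, -0.432 for RPS13 and -0.415 for CCS1. HUG1, a gene of the DNA damage response, fell by 1.08 in young cells and rose by 0.95 in aged cells, a difference of -2.03. ALD4, an aldehyde dehydrogenase gene, likewise went from a log2 fold change of -0.59 to one of 0.35. ECM29 was reversed, with a rise of 0.67 in young cells, a log2 fold change of -0.22 in aged cells and a difference of 0.886.

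The genes in the next sentences had the more positive log2 fold change in young cells. The difference was 1.81 for PRM6, 1.04 for SAG1, 1.04 for YLR342W-A, 0.87 for COS12, 0.771 for STE3, 0.772 for COS8 and 0.76 for FET4. It was 0.676 for SCW11, 0.666 for DSE4, 0.612 for SIC1, 0.474 for ZRT2 and 0.57 for FIG1. For EGT2, a cell separation gene, it was 0.495. It was 0.854 for HXT3, 0.737 for SSE1 and 0.531 for KAR2.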

How the results depend on the processing

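The counts of genes lower by at least 2-fold (76 to 81 on leaving out 1 library) and of stress list members that fell (51 to 55) stayed within 1.5 times their values under every alternative run. Leaving out 1 library gave 1416 to 1983 genes that differed, 674 to 1003 higher, 742 to 1040 lower, 30 to 59 higher by at least 2-fold, 112 to 148 past a log2 fold change of 0.5, 2 to 5 mitochondrially encoded genes higher, 645 to 1115 for the difference between young and aged effects, and 14 to 19 between the double and the msn2 deletion. Library totals gave 674 lower genes and 19 for the double deletion, DESeq2 gave 85 for the latter, and the filter of 10 CPM left 12 genes higher by at least 2-fold. Restriction to genes with a known length left 25 of these and length correction 27; the tested set was smaller in each of these 3 settings. Removal of mitochondrial features left 0 of the mitochondrially encoded list, since they were taken out. The 500 base window raised the promoter share to 88.2%. With replicate number as a block 1964 genes differed, 117 of them by at least 2-fold, but the numbers gave no clear pairing of these libraries. Among the genes named, no call changed direction: 4 calls were lost and 12 gained over the alternatives that kept all libraries, and 14 lost and 7 gained over those that left 1 out. Where a fit left a group with 2 libraries, all groups shared 1 estimate of spread. Depth limits genes at about 1 CPM, such as DDR2 and PRM6 in 1 of the strains, and the expected counts cover no error of read sharing.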
